A study of Mus musculus with 2 samples.

Results

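The genes described here encode parts of the inflammasome and of pyroptosis and were read in the epithelium of the fetal mouse intestine. They number 10 and were chosen by name, not by a threshold on their values, but with earlier results of these data known. They are the sensor genes Nlrp6, Naip1, Naip5 and Naip6, the adaptor gene Pycard, the caspase genes Casp1 and Casp4, the pore and membrane rupture genes Gsdmd and Ninj1, and the cytokine gene Il18. All 10 were found once, by symbol, among the 52636 gene IDs of both deposited count matrices. Single-cell RNA-seq (10x Chromium, 3' end, with unique molecular identifiers, UMIs) was made from C57BL/6 embryos at E18.5 (late gestation). One library came from an Mlkl -/- embryo and the other from a Casp8 C362A/C362A Mlkl -/- embryo, so both embryos lacked Mlkl, the executioner of necroptosis. In the C362A allele the active-site cysteine of caspase-8 is replaced, and the Mlkl -/- embryo served as the comparison. The labels give small intestine as the source while the protocol speaks of intestines, and the gut region was not resolved further. Tissue was dissociated with papain and about 10000 cells were loaded per sample, against 1478 and 1014 barcodes in the deposited matrices. The number of embryos was 1 per genotype, so no difference below has a replicate check, no p-value is given, and all intervals (95%) cover counting error only.

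After filtering, 1435 cells of the Mlkl-null library (median 3707 UMIs) and 873 of the Casp8-mutant library (median 1957 UMIs) were kept, and 2 barcodes occurred in both. Cells called epithelial-like from marker genes numbered 1186 (82.6%) and 586 (67.1%), with 5332104 and 2028156 UMIs in sum. The 14 pan-epithelial markers (Epcam, keratins, claudins and others) reached 9005 and 9290 UMIs per 1000000 UMIs of the class (CPM) in the Mlkl-null and Casp8-mutant library. Clusters were named epithelial-like from these same markers, so the sums do not check the label. Which Casp8-mutant clusters received it changed with the clustering settings, as given at the end. The mix of epithelial cells differed: enterocyte markers summed to 56749 and 14123 CPM, goblet markers to 9877 and 29514 CPM, and progenitor markers to 527 and 809 CPM. RNA of other cells differed too. The 16 granulocyte markers summed to 37.3 CPM in the Mlkl-null epithelium (5 of the 16 at 0: Cxcr2, Csf3r, Mmp8, Elane and Mpo) and to 3627 CPM in the Casp8-mutant epithelium (none at 0), against 58679 CPM in the granulocyte-like cells of the latter. The 20 myeloid markers summed to 381 and 756 CPM (Flt3 at 0 in both, Itgax also at 0 in the Mlkl-null library). Erythroid markers summed to 3036 and 10533 CPM. Median mitochondrial shares over all deposited barcodes, before filtering, were 1.09% and 0.480%. Their part in the ratios below was not tested, except where a value is given. The embryos also differed in sex-linked RNA, with 2 and 6164 Xist UMIs and 226 and 1 Ddx3y UMIs in the epithelium, so genotype, sex-linked expression, litter and library cannot be told apart. Casp8 itself had 377 and 209 UMIs and a ratio of 1.46 (1.22 to 1.73). A point mutant allele is transcribed, so this level does not check the genotype.

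An inflammasome is a protein platform that assembles in the cytosol when a sensor meets a microbial product or a sign of damage. NAIP proteins bind bacterial flagellin or secretion-system parts and join NLRC4, NLRP6 is a sensor expressed in the intestinal epithelium, and the adaptor ASC (encoded by Pycard) links sensors to caspase-1. Caspase-1 and the lipopolysaccharide-binding caspase-11 (encoded by Casp4 in the mouse) cut gasdermin D, whose pores release interleukin-18 and kill the cell by pyroptosis, with NINJ1 rupturing the plasma membrane at the end. Caspase-8 can feed into the same machinery, and the loss of its protease activity together with MLKL is a known setting in which ASC and caspase-1 have been studied.

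The 4 sensor genes and Il18 were lower in the Casp8-mutant library, Casp4 and Casp1 were higher, and Pycard, Gsdmd and Ninj1 moved by less than the size rule. That rule called a gene higher or lower at a 1.5-fold or larger ratio (Casp8-mutant over Mlkl-null, with 0.5 UMI added to each sum) whose interval left out 1, among genes with at least 20 UMIs over both libraries. By it 2 members were called higher, 5 lower and 3 neither, and their median log2 ratio was -0.39. Of the 13964 genes measured in the epithelium 22.8% were called higher, 27.5% lower and 49.7% neither, around a median log2 ratio of -0.17. An interval that left out 1, at any size of ratio, was found for 58.5% of the measured genes. Calls were therefore common in this pair of libraries.

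**Figure D1:**
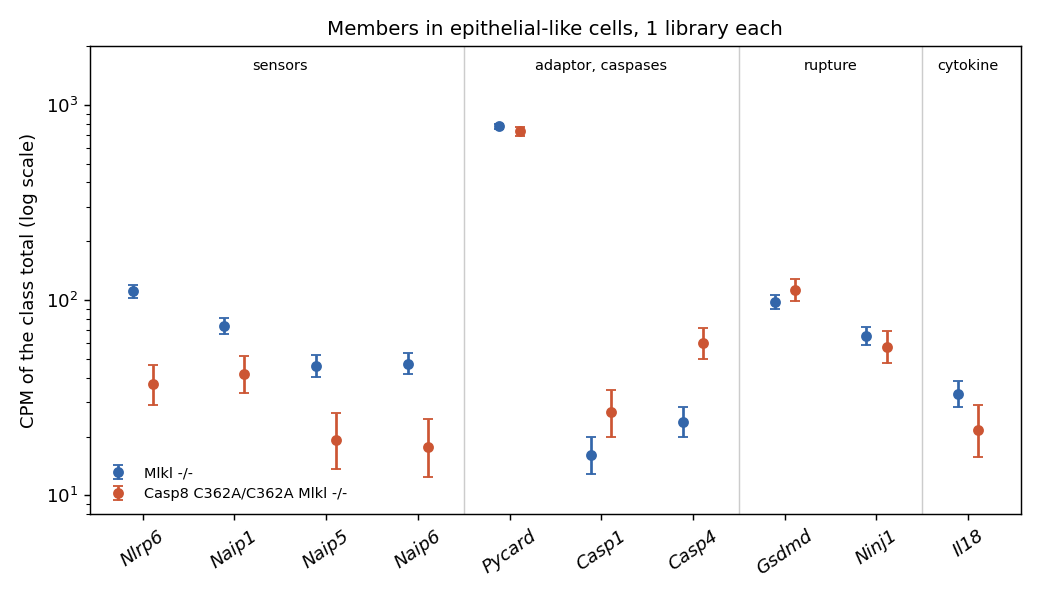
Level of each of the 10 genes in epithelial-like cells of the 2 libraries, in CPM on a log axis, with exact Poisson 95% intervals as bars. The intervals of the 4 sensor genes, of Casp4 and of Casp1 do not overlap between the libraries, while those of Pycard, Gsdmd and Ninj1 do. The share of all genes without overlap was not counted.

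Among the sensors, Nlrp6 had the largest difference. Nlrp6 (chr7:140920902-140929192, plus strand, GRCm38) had 590 UMIs in the Mlkl-null epithelium, or 111 CPM (102 to 120.0), and 75 UMIs in the Casp8-mutant epithelium, or 37.0 CPM (29.1 to 46.4). Its ratio was 0.336 (0.259 to 0.426), a 2.97-fold lower level. The call held under all 15 alternatives that gave a value, which ran from 0.242 to 0.380. Over the same cells the enterocyte gene Fabp1 stood at 13930 and 326 CPM, a ratio of 0.023, and Apoa4 had a ratio of 0.241. The level of Nlrp6 moved the same way as these enterocyte genes, and their part in it was not tested. The 250 bases before its RefSeq start (GRCm38.p6, chr7:140920652-140920901, plus strand) are shown because HNF4 family factors are known regulators of enterocyte genes. The capitals mark the letters CAAAGGTC, 49 to 42 bases before the start.
Nlrp6: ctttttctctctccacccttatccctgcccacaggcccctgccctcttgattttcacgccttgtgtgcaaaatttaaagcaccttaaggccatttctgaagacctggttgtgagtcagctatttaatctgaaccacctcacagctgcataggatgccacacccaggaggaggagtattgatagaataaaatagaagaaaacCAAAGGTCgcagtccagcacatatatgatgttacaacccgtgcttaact
The form CAAAGGTC stood on either strand in 1.01% of the 32851 promoter windows of that table and, among the 9 members found there (Gsdmd was not matched), in Nlrp6 alone. A second HNF4 form, CAAAGTCCA, was in 0.384% of windows and in no member. The forms searched were chosen after the promoters had been read, and a match is a description of letters, not of binding.

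The 3 Naip genes lie side by side on chromosome 13 and were all lower. Naip1 (chr13:100407764-100452869, minus strand) had 393 and 85 UMIs, or 73.7 (66.6 to 81.4) and 41.9 CPM (33.5 to 51.8), with a ratio of 0.571 (0.444 to 0.721). Naip5 (chr13:100211739-100246323, minus strand) had 245 and 39 UMIs, or 45.9 (40.4 to 52.1) and 19.2 CPM (13.7 to 26.3), with a ratio of 0.423 (0.291 to 0.589). Naip6 (chr13:100281121-100317674, minus strand) had 252 and 36 UMIs, or 47.3 (41.6 to 53.5) and 17.8 CPM (12.4 to 24.6), with a ratio of 0.380 (0.257 to 0.534). The intervals of the 2 libraries did not overlap for any of them, and the share of all genes without such overlap was not counted. NAIP1 is known to sense the needle of the bacterial type III secretion system, and NAIP5 and NAIP6 sense flagellin. Naip5 and Naip6 stayed lower under all 15 alternatives (0.317 to 0.639 and 0.320 to 0.587). Naip1 did not: in 5 of the 15 it was called neither, among them the setting without Casp8-mutant cluster E13, described below, where the ratio was 0.875.

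These genes are paralogs, and a read that falls on shared sequence could be assigned to either or dropped. In the reference transcripts the last 500 bases of each longest Naip coding transcript, where 3' reads fall, shared 0 of 451 words of 50 bases with any other Naip transcript. Whole transcripts shared 6.33% to 22.3% of such words, the most between Naip5 and Naip6. Naip1 also overlaps the pseudogene Rpl31-ps13 on the other strand. The sources used here do not say whether counting used strand.

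Among the 3 members the longest run of bases shared before the start was 14, between Naip1 and Naip5, shown in capitals in windows of 62 bases (RefSeq GRCm38.p6, both minus strand, chr13:100452937-100452998 and chr13:100247379-100247440).
Naip1: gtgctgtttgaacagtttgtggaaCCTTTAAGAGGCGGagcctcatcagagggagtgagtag
Naip5: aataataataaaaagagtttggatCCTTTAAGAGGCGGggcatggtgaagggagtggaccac
The run CCTTTAAGAGGCGG begins 110 bases before the start of Naip1 and 80 before that of Naip5, and was in 6 of the 32851 windows. The longest run that Naip6 shared with Naip1 was 9 bases and with Naip5 6 bases, and the ratio intervals of Naip5 and Naip6 overlapped. A longer run of 34 bases, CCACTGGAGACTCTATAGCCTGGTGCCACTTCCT, is shared by Naip5 (from 46 bases before its start) and Naip2 (from 39). Naip2 is no member and was called neither, at 1.04, while Naip5 was lower at 0.423.

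Other sensor genes of the pathway list did not share 1 direction. Nlrc4, the protein that NAIPs activate, had 148 and 36 UMIs and was lower, with a ratio of 0.646 (0.431 to 0.926). Naip2, which senses the inner rod of type III secretion, had 193 and 76 UMIs and a ratio of 1.04 (0.783 to 1.36), called neither. Nlrp3, a sensor of many damage signals that is typical of myeloid cells, had 3 and 17 UMIs and a ratio of 13.1 (4.31 to 79.3). Nlrp3 stood at 8.38 CPM in the Casp8-mutant epithelium, 33.4 CPM in myeloid-like cells and 232 CPM in granulocyte-like cells of that library. Of the 14 sensor genes listed for the pathway, 7 were measured, of which 5 were lower, 1 higher and 1 neither, beside 27.5% lower and 22.8% higher over all genes. The list was chosen with earlier results of these data known, so these counts are a description only.

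Pycard had the most UMIs of the 10 genes in the epithelium. It (chr7:127989708-127993867, minus strand, overlapping the predicted gene Gm45205 on the plus strand) had 4135 UMIs in the Mlkl-null epithelium, or 775 CPM (752 to 799), and 1485 in the Casp8-mutant epithelium, or 732 CPM (695 to 770.4). The ratio was 0.944 (0.889 to 1.002), and the intervals of the levels overlapped. It summed over unlike clusters and ranged from 0.471 to 1.05 over the 15 alternatives. It was 0.734 without Casp8-mutant cluster E13, and at a clustering resolution of 0.5, which left E13 and E17 out of the class, it was 0.471 and called lower.

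Both caspase genes were called higher, against the direction of the sensors. Casp4 (chr9:5308828-5336783, plus strand) had 127 UMIs in the Mlkl-null epithelium, or 23.8 CPM (19.9 to 28.3), and 122 in the Casp8-mutant epithelium, or 60.2 CPM (49.95 to 71.8). Its ratio was 2.53 (1.95 to 3.26), and it was called higher under all 15 alternatives (2.08 to 3.73). In the Casp8-mutant library the epithelial level of 60.2 CPM was above that of myeloid-like cells, at 16.7 CPM (3.44 to 48.7), and near that of granulocyte-like cells, at 58.0 CPM from 3 UMIs (11.96 to 169.5).

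The promoter window of Casp4 is shown because caspase-11 is known as a gene induced through NF-kappaB and interferon. It covers the 250 bases before the first of the 2 RefSeq starts, which lie 11 bases apart (GRCm38.p6, chr9:5308599-5308848, plus strand). Capitals mark matches to the NF-kappaB form GGG, any 2 bases, then TTTCC, 1 on the plus strand 93 to 84 bases before the start and 1 on the minus strand 14 to 5 bases before it.
Casp4: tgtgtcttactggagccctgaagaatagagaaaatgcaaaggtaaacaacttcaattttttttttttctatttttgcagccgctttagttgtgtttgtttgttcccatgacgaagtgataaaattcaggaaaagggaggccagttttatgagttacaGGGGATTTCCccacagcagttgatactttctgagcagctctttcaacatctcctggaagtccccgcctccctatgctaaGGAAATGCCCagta
That form was in 464 of the 32851 windows (1.41%) and, of the 9 members searched, in Casp4 alone. The interferon response forms GAAA, any 2 bases, then GAAA (2.98% of windows) and TTCNNNGAA (7.02%) were in none of the 9, which says only that these letters are not in these windows.

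Casp1 (chr9:5298517-5307265, plus strand) lies next to Casp4 and is the caspase that matures interleukin-18. It had 86 UMIs in the Mlkl-null epithelium, or 16.1 CPM (12.9 to 19.9), and 54 in the Casp8-mutant epithelium, or 26.6 CPM (20.002 to 34.7). The ratio was 1.66 (1.15 to 2.35), called higher. The call rested on cluster E20, described below. Without the Casp8-mutant cells of that cluster the ratio was 0.970 (0.598 to 1.49). It was 0.826 (0.335 to 1.69) with all cells thinned to 2000 UMIs, which leaves out shallow cells such as most of E20, whose median was 1590 UMIs.

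Downstream, the pore and rupture genes changed little over the whole epithelium. Gsdmd (chr15:75862327-75867408, plus strand) had 522 and 229 UMIs, or 97.9 (89.7 to 107) and 113 CPM (98.8 to 129), with a ratio of 1.15 (0.983 to 1.35). It was called higher in 2 of the 15 alternatives, at 1.53 with each library clustered alone and 1.52 without Casp8-mutant cluster E13. Ninj1 (chr13:49187485-49196244, plus strand) had 350 and 117 UMIs, or 65.6 (58.9 to 72.9) and 57.7 CPM (47.7 to 69.1), with a ratio of 0.881 (0.707 to 1.09), and kept its call under all 15.

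Il18, the interleukin that the epithelium itself makes and that caspase-1 cuts, was the least secure of the calls. It (chr9:50554827-50581840, plus strand, overlapping Bco2 and Tex12 on the minus strand) had 176 UMIs, or 33.0 CPM (28.3 to 38.3), in the Mlkl-null epithelium and 44 UMIs, or 21.7 CPM (15.8 to 29.1), in the Casp8-mutant epithelium. The ratio was 0.663 (0.461 to 0.919), called lower. It kept that call in only 5 of the 15 alternatives, over which the ratio ran from 0.458 to 1.01.

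In the Casp8-mutant library the clusters E13 and E20 pulled the sums in opposite directions. The joint clustering gave 11 large epithelial clusters, each of 1 library but for 6 Mlkl-null cells in E7 and 6 in E13, which are left out of the values by cluster. In the Mlkl-null library these were E2 (progenitor markers at 1387 CPM), the goblet cluster E1, the enterocyte clusters E4 and E10 (enterocyte markers at 83931 and 122897 CPM), E3 (led by Gpx3 and Afp, 42113 CPM) and E8 (led by nuclear RNA). In the Casp8-mutant library they were E13 (led by Reg3b, Reg3g and Gpx2, progenitor markers at 1250 CPM), the goblet cluster E7, E17 (led by nuclear RNA), E18 (led by Reg3b and Isg15) and E20 (led by Isg15, Sprr2a3 and Lgals3bp). E13 held 155 cells, 26.5% of the Casp8-mutant epithelial cells but 42.4% of their UMIs. E20 held 167 cells, 28.5% of the cells but 13.9% of the UMIs. A member low in E13 and high in E20 therefore has a class ratio that depends on how cells are weighted.

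**Figure D2:**
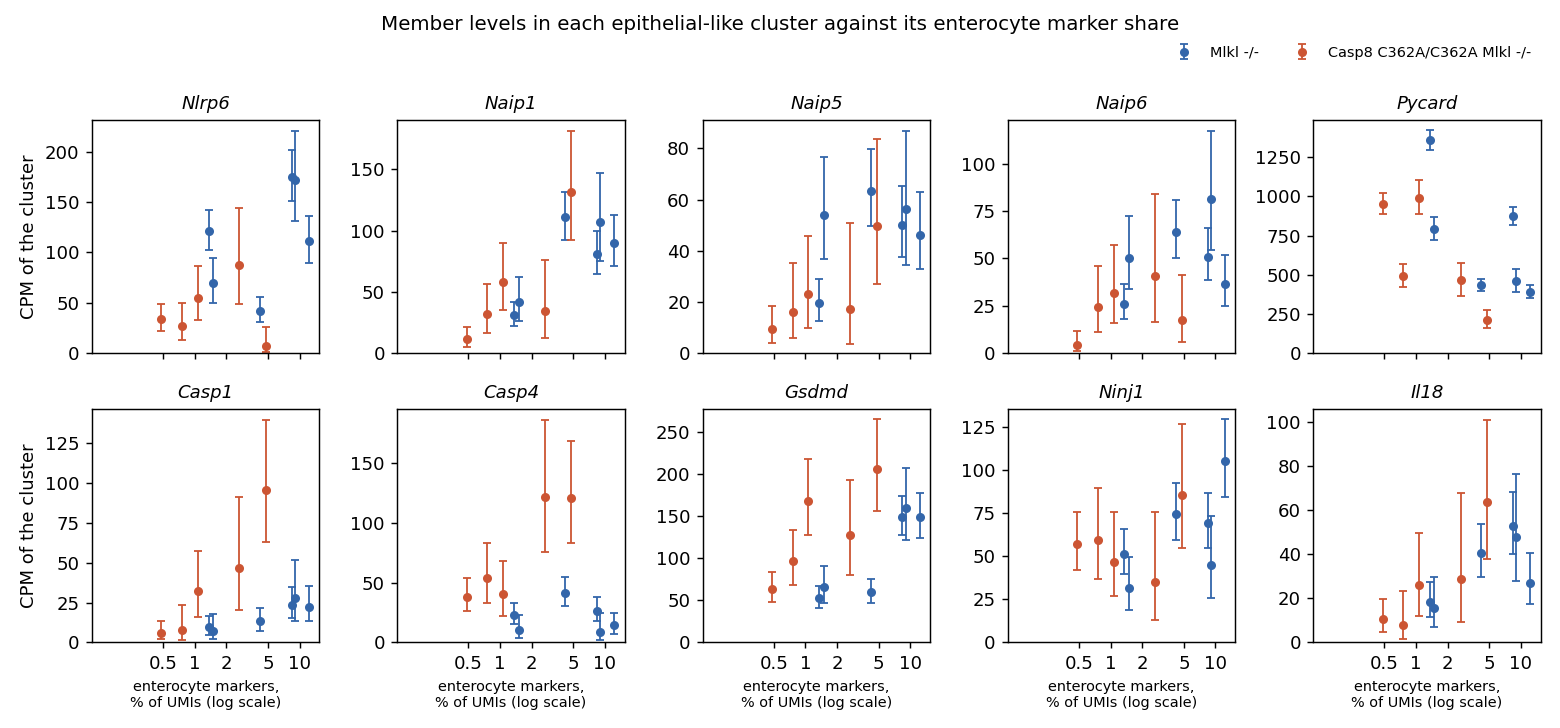
Level of each of the 10 genes in CPM (vertical, linear) in the 11 epithelial clusters, against the enterocyte marker share of the cluster's UMIs (horizontal, log axis), with exact Poisson 95% intervals as bars, Mlkl-null clusters in blue and Casp8-mutant clusters in red. Within the Casp8-mutant library E20 has the highest Casp1, Naip1, Gsdmd and Il18 and the lowest Pycard and Nlrp6, at the highest enterocyte marker share of that library.

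In E20 Casp1 and Gsdmd were at their highest and Pycard and Nlrp6 at their lowest of all 11 clusters. Casp1 was 96.0 CPM (63.3 to 140) in E20, against 5.82 CPM in E13, 8.06 in E7, 32.0 in E17 and 46.5 in E18, and between 6.96 CPM (E1) and 28.1 CPM (E8) in the Mlkl-null clusters. Gsdmd was 206 CPM (157 to 267) in E20 and 64.0 CPM (48.2 to 83.3) in E13, and ran from 53.0 CPM (E2) to 160 CPM (E8) in the Mlkl-null library. Casp4 was alike in E20, at 121 CPM (83.7 to 169), and E18, at 122 CPM (75.5 to 186), and ran from 38.4 CPM (E13) to 53.8 CPM (E7) in the other Casp8-mutant clusters. The highest Mlkl-null level of Casp4 was 41.3 CPM (30.3 to 54.9), in E3.

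The sensors did not go together in E20. Naip1 was 132 CPM (92.6 to 181) in E20 and 11.6 CPM (5.58 to 21.4) in E13, which were the highest and lowest of all 11 clusters. In the Mlkl-null library Naip1 ran from 30.9 CPM in E2 to 111 CPM in E3. Nlrp6 went the other way within E20, at 7.11 CPM from 2 UMIs (0.861 to 25.7), and peaked in the Casp8-mutant library in E18, at 87.1 CPM (48.8 to 144). In the Mlkl-null library Nlrp6 was highest in the enterocyte cluster E4, at 175 CPM (151 to 201), and lowest in E3, at 42.2 CPM (31.1 to 55.9). Within the Casp8-mutant library Naip1 and Nlrp6 thus peaked in different clusters.

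Pycard was highest in the 3 clusters with the most progenitor marker RNA (1387 CPM in E2, 1250 in E13, 934 in E17), but did not follow those markers further: E1, with progenitor markers at 783 CPM, had less Pycard than the enterocyte cluster E4, with 193 CPM. It was 1359 CPM (1295 to 1424) in E2 of the Mlkl-null library, above 874 in E4, 794 in E1, 461 in E8, 434 in E3 and 393 in E10. In the Casp8-mutant library it was 992 CPM in E17 (890 to 1104) and 954.6 CPM in E13 (890 to 1022), which overlapped, above 495 in E7, 464.5 in E18 and 213 in E20 (163 to 275). E2 also counted Pycard among its leading genes. In the groups made by subtracting library means, described below, 1 group of 189 Mlkl-null cells had Pycard at 1157 CPM (1087 to 1230). Its progenitor markers stood at 218 CPM, so high Pycard was not limited to cells rich in progenitor marker RNA.

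Clusters close in 1 marker list were set side by side, as 2 pairs picked after the marker values had been seen. E2 and E13 had progenitor markers at 1387 and 1250 CPM but enterocyte markers at 13547 and 4794 CPM. Between them Nlrp6 was 121 (103 to 142) and 33.8 CPM (22.6 to 48.5), Naip1 30.9 (21.9 to 42.2) and 11.6 CPM (5.58 to 21.4), and Naip6 26.1 (17.97 to 36.7) and 4.66 CPM (1.27 to 11.9), with no overlap in any of the 3, whereas Naip5 overlapped, at 19.8 (12.8 to 29.2) and 9.31 CPM (4.02 to 18.4). Pycard was 1359 and 954.6 CPM, also without overlap. Casp4 was 22.9 (15.4 to 33.0) and 38.4 CPM (26.4 to 54.0), Gsdmd 53.0 and 64.0 CPM, and Ninj1 51.4 and 57.0 CPM, all overlapping. E3 and E20 had enterocyte markers at 42113 and 47869 CPM but goblet markers at 4392 and 12090 CPM. Between those, Naip1 was 111 (92.2 to 132) and 132 CPM (92.6 to 181) and Naip5 63.3 (49.5 to 79.7) and 49.8 CPM (27.2 to 83.5), both overlapping, while Naip6 was 64.1 (50.3 to 80.6) and 17.8 CPM (5.77 to 41.5) and Pycard 434 and 213 CPM, without overlap. Casp1 was 13.2 (7.38 to 21.7) and 96.0 CPM (63.3 to 140), Casp4 41.3 and 121 CPM, and Gsdmd 59.7 (46.4 to 75.7) and 206 CPM (157 to 267), all higher in E20 without overlap. In both pairs Nlrp6, Naip6 and Pycard were lower in the Casp8-mutant cluster. The share of all genes without overlap in these pairs was not counted. Over the whole epithelium 58.5% of measured genes had a ratio interval that left out 1, so differences beyond counting error were common. The clusters differ in depth, with medians of 5190 UMIs in E13 and 1590 in E20, and granulocyte markers ran from 16.9 to 36.7 CPM over the Mlkl-null clusters and from 3166 to 4042 CPM over the Casp8-mutant ones. The part of the differing marker content, depth and granulocyte RNA in these differences was not tested.

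Groups that hold cells of both libraries were made by subtracting each library's mean per gene before clustering, which brought the goblet cells together. The goblet-like group held 88 and 85 cells, with goblet markers at 64761 and 171018 CPM, and within it 8.02% of 5976 genes were higher and 28.5% lower. There Pycard was 798 CPM from 513 UMIs and 370 CPM from 96 UMIs, a ratio of 0.465 (0.368 to 0.577). Progenitor markers in these cells stood at 781 and 212 CPM and enterocyte markers at 14730 and 10477 CPM, and their part in the Pycard ratio was not tested. Nlrp6 was 76.2 and 26.9 CPM, a ratio of 0.375 (0.135 to 0.785). NLRP6 is known for its part in mucus secretion by goblet cells.

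In the same goblet-like cells 3 members were higher. Casp4 was 14.0 CPM from 9 UMIs and 73.1 CPM from 19 UMIs, a ratio of 5.08 (2.25 to 13.1). Gsdmd was 62.2 and 112 CPM, a ratio of 1.80 (1.07 to 2.97), and Ninj1 was 32.7 and 73.1 CPM, a ratio of 2.24 (1.14 to 4.38). With the joint clusters E1 and E7 in place of the group, the Gsdmd ratio was 1.46 (0.901 to 2.37) and that of Ninj1 1.88 (0.966 to 3.73), which ended both calls, whereas Casp4 kept 4.87 and Pycard 0.624. Naip1 (ratio 1.63, 0.824 to 3.10), Naip5 (0.466, 0.150 to 1.05) and Naip6 (0.690, 0.261 to 1.47) were called neither in the group, and Casp1 and Il18 had fewer than 20 UMIs. CPM are shares of a total in which goblet markers had the larger part in the Casp8-mutant cells, and the median log2 ratio of all genes there was -0.54. Scaled by the median of ratios, which moved every goblet ratio by 0.17 on the log2 scale, Pycard was 0.523 and Nlrp6 0.422, with the same calls.

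**Figure D3:**
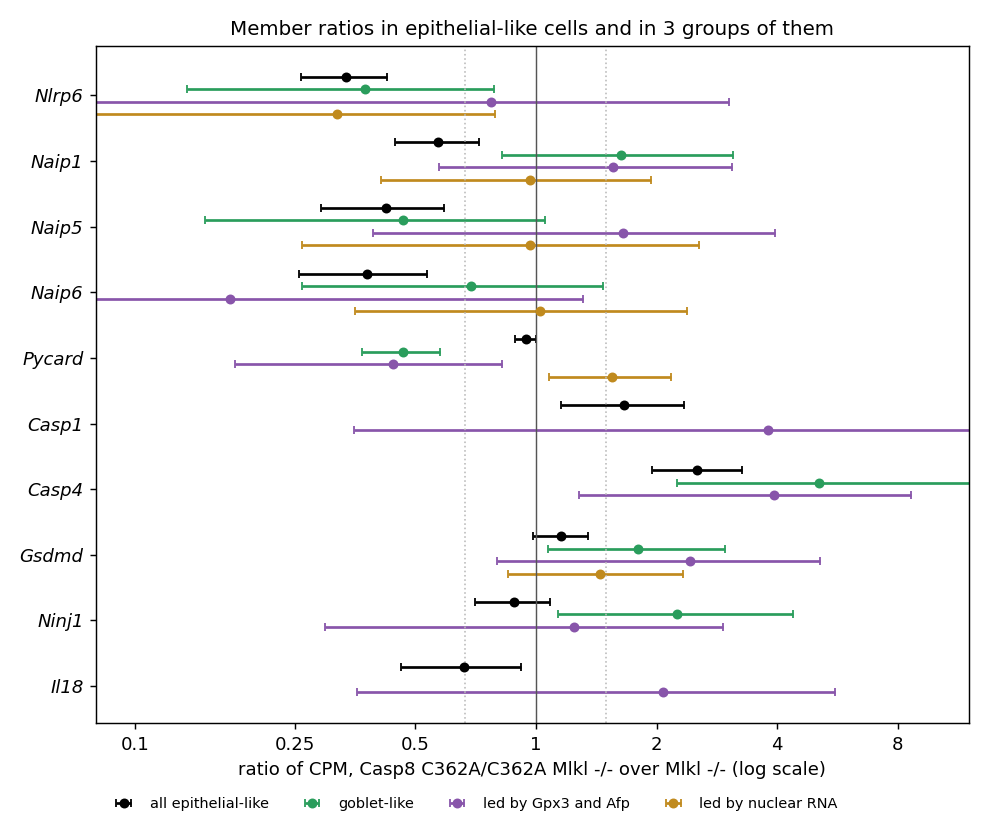
Ratio of each gene (Casp8-mutant over Mlkl-null, log axis) in all epithelial-like cells and in epithelial groups with cells of both libraries, with 95% counting intervals as bars, a line at 1 and dotted lines at the 1.5-fold rule, for genes with at least 20 UMIs. Casp4 stands above 1 in the whole epithelium and the goblet-like group, and Nlrp6 below 1 in both.

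The other mixed groups had fewer Casp8-mutant cells. A group of 293 and 24 cells led by Gpx3, Afp, Meltf and Fabp6, in which 4.76% of genes were higher and 4.08% lower, had Casp4 higher at 3.93 (1.28 to 8.60) and Pycard lower at 0.440 (0.178 to 0.823). Naip1 and Naip5 there had ratios of 1.55 and 1.65, called neither, and Naip6 had 81 and 0 UMIs. A group of 115 and 43 cells led by nuclear RNA, in which 16.1% of genes were higher and 18.9% lower, had Nlrp6 lower at 0.319 (0.075 to 0.788) and Pycard higher at 1.55 (1.08 to 2.18). Its cells were not alike in the libraries, with enterocyte markers at 93355 and 24160 CPM and progenitor markers at 143 and 347 CPM, and the part of this in both ratios was not tested. In the Gpx3 group enterocyte markers were 46471 and 30461 CPM. Naip1, Naip5 and Naip6 had ratios of 0.966, 0.968 and 1.03 in the nuclear-RNA group, all neither, so no Naip gene was called lower within any of the 3 mixed groups, at these UMI counts. Pycard had no single direction across groups, whereas Nlrp6 was lower in the goblet-like and nuclear-RNA groups and called neither, from 54 and 1 UMIs, in the Gpx3 group.

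Set against the other cell classes of the Mlkl-null library, the 4 sensors and Pycard had their highest CPM in the epithelium. Glia-like and neuron-like cells there held only 48126 and 47739 UMIs in sum, too few to place the Naip genes below their epithelial levels. Pycard was 775 and 732 CPM there, against 297 and 478 CPM in myeloid-like cells, 466 and 404 CPM in fibroblast-like cells and 371 and 76.6 CPM in endocrine-like cells. In myeloid-like cells (61 and 103 cells that fell into separate clusters by library, with 17.2% of genes higher and 12.8% lower) Pycard was higher in the Casp8-mutant library, with a ratio of 1.60 (1.13 to 2.30), and in fibroblast-like cells, where 12.4% of genes were higher and 10.3% lower, its ratio was 0.883 (0.495 to 1.44). Nlrp6, at 111 CPM in the Mlkl-null epithelium, was next highest there in endocrine-like cells, at 49.5 CPM (21.4 to 97.5), whose interval stayed under the epithelial one. Naip6, at 47.3 CPM, was at 37.1 CPM from 6 UMIs (13.6 to 80.8) in endocrine-like cells, which overlapped, and at 0 of 167224 UMIs in fibroblast-like cells, which allows up to 17.9 CPM.

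**Figure D4:**
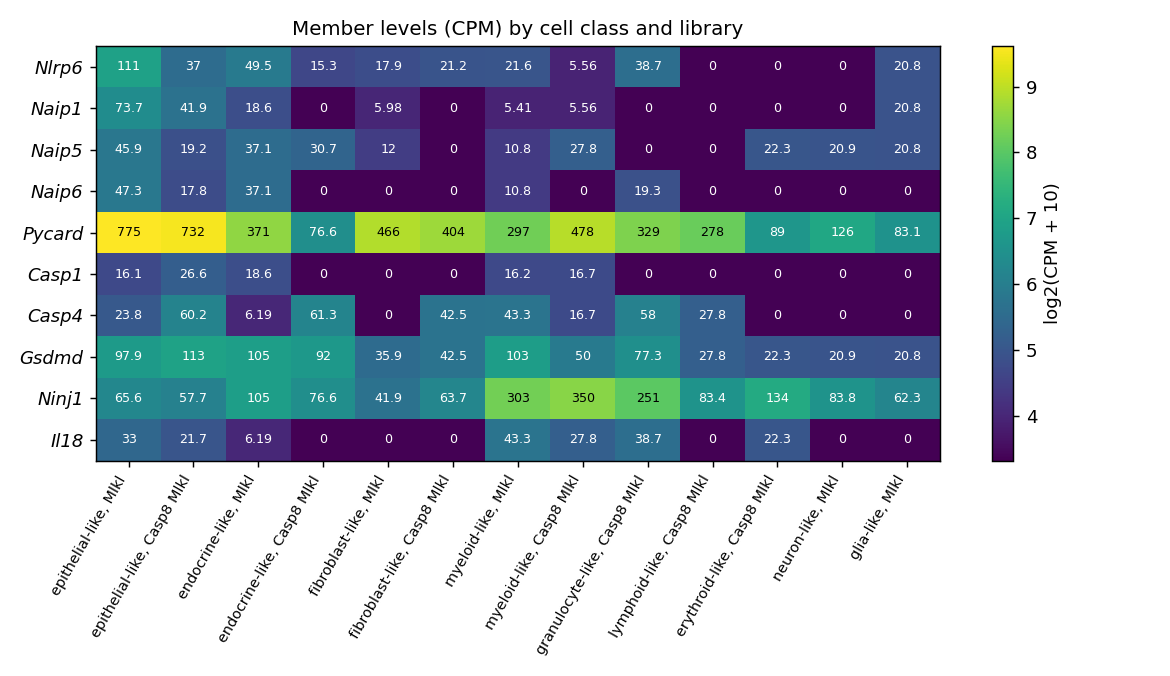
Heatmap of the 10 genes (rows) over the 13 class and library units with at least 20 cells (columns, ending in Mlkl for the Mlkl-null and in Casp8 Mlkl for the Casp8-mutant library), with the level in CPM printed in each cell and log2(CPM + 10) as its colour. In the Mlkl-null library Pycard and the 4 sensor genes have their highest CPM in epithelial-like cells, and Ninj1 is highest in myeloid-like cells of both libraries. Classes with few UMIs, such as glia-like and neuron-like cells, do not fix the order of the Naip genes.

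The other members had no such order. Ninj1 was highest in myeloid-like cells, at 303 (229 to 393) and 350 CPM (269 to 448), above the epithelium's 65.6 and 57.7 CPM without overlap. Gsdmd in the Mlkl-null library was 97.9 CPM in epithelial-like, 105 in endocrine-like and 103 in myeloid-like cells, with overlapping intervals. In the Casp8-mutant library it was 113 CPM (98.8 to 129) in epithelial-like and 92.0 CPM (33.8 to 200.2) in endocrine-like cells, and 50.03 CPM from 9 UMIs (22.9 to 94.97) in myeloid-like cells, below the epithelium without overlap. Il18 was 43.3 and 27.8 CPM in myeloid-like cells from 8 and 5 UMIs, overlapping the epithelial 33.0 and 21.7 CPM. Casp1 had 3 UMIs in myeloid-like cells of each library (16.2 and 16.7 CPM) and 0 in fibroblast-like, granulocyte-like, lymphoid-like and erythroid-like cells. There the floor of 3 counts is 17.9 CPM or more, which does not place Casp1 below the epithelium's 16.1 CPM. In the Casp8-mutant library the other classes held few UMIs, and Naip5 at 30.7 CPM from 2 UMIs (3.71 to 111) in endocrine-like cells and 27.8 CPM from 5 UMIs (9.02 to 64.9) in myeloid-like cells overlapped the epithelial 19.2 CPM.

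Over all kept cells, without any choice of class, the calls were those of the epithelium except for Il18. There 22.3% of 15326 genes were higher and 26.7% lower, and Nlrp6 had 608 and 81 UMIs (ratio 0.318, 0.248 to 0.399), Casp4 136 and 139 (2.42, 1.90 to 3.09) and Il18 191 and 58 (0.725, 0.528 to 0.971, neither). The epithelial-like cells held most of these UMIs, 590 of the 608 for Nlrp6 in the Mlkl-null library and 75 of the 81 in the Casp8-mutant library.

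Shares of cells with a UMI were compared after each cell was thinned to 2000 UMIs, which left 1056 Mlkl-null and 352 Casp8-mutant epithelial-like cells and left out 130 and 234 shallower ones. Nlrp6 was found in 20.1% (17.7 to 22.6, Clopper-Pearson) and 7.10% (4.65 to 10.3) of cells, and Casp4 in 4.64% (3.45 to 6.09) and 8.81% (6.06 to 12.3), whose intervals overlap at the edge. Pycard was found in 65.2% and 61.9% of cells. At full depth the same 3 genes gave 34.8% and 11.9%, 9.44% and 17.4%, and 75.1% and 59.0%. The direction for Nlrp6 and Casp4 was thus that of the summed levels. Fibroblast-like cells of the Mlkl-null library (26 cells after thinning) were read for comparison. Free RNA was not estimated, and RNA made by these cells themselves cannot be told apart from it here. In them Nlrp6, Casp4, Casp1, Naip5, Naip6 and Il18 were in 0 cells, which allows up to 13.2%. Naip1 was in 3.85%, Ninj1 in 7.69%, Gsdmd in 15.4% and Pycard in 61.5%. Epithelial shares of Pycard, Gsdmd (18.3%) and Ninj1 (13.8%) lay within the intervals of the fibroblast-like shares. At full depth 6.82% of the 44 fibroblast-like cells (median 2350 UMIs, against 3902 in the Mlkl-null epithelium) held an Nlrp6 UMI. The Casp8-mutant library has too few deep fibroblast-like cells for 2000 UMIs (3 cells), so they were read at 1000 UMIs. There Casp4 was in 2 of 29 fibroblast-like cells (6.90%, 0.846 to 22.8) against 7.29% of epithelial-like cells (5.31 to 9.73). The epithelial Casp4 share in that library was thus not separate from the fibroblast-like share at this depth.

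At 2000 UMIs the shares of the Naip genes were lower without overlap. How many of all genes have shares without overlap was not counted. Naip1 was in 15.3% (13.2 to 17.7) and 7.95% (5.35 to 11.3) of cells, Naip5 in 9.38% (7.68 to 11.3) and 4.55% (2.62 to 7.28) and Naip6 in 8.81% (7.17 to 10.7) and 3.12% (1.57 to 5.52). The other members had overlapping intervals. Il18 was in 6.91% and 4.55% of cells. Gsdmd was in 18.3% and 19.6%, Ninj1 in 13.8% and 11.4% and Casp1 in 3.22% and 2.56%. Thinned to 1000 UMIs, which kept 1186 and 576 cells and so nearly all of E20, some of this changed. Naip1 was then in 7.84% (6.38 to 9.52) and 5.90% (4.12 to 8.15) of cells and Naip5 in 4.89% (3.73 to 6.28) and 2.78% (1.60 to 4.47), both overlapping, while Naip6, at 4.64% and 1.39%, and Nlrp6, at 9.87% and 4.17%, stayed apart. Casp1 turned to 2.11% (1.37 to 3.10) and 4.34% (2.83 to 6.34), overlapping, and Gsdmd was in 9.53% (7.92 to 11.3) and 14.1% (11.33 to 17.2), just overlapping. For genes read together in a cell, the sensors counted were Nlrp6, Naip1, Naip5, Naip6 and the non-members Naip2 and Nlrc4. At least 1 of these was seen in 51.6% of Mlkl-null and 29.0% of Casp8-mutant cells. Pycard with at least 1 of these was seen in 33.8% and 15.1%. Pycard with Casp1 or Casp4 was seen in 4.83% of cells in each library. Gsdmd with Casp1 or Casp4 was seen in 1.42% and 3.98%. These are shares at a depth of 2000 UMIs, so a cell without a UMI may still express the gene.

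The rest of the pathway was given by a list of 56 genes, members included, of which 35 were measured in the epithelium. The list was chosen with earlier results of these data known. Its counts, also those by role, therefore describe the list and do not test it against all genes. The calls over these 35 were 16 higher, 7 lower and 12 neither (median log2 ratio 0.31). Among the 25 that are not members they were 14 higher and 2 lower (median 1.58), against 22.8% and 27.5% of all genes. Among cytokines and their binding proteins 4 of 5 measured were higher, beside 22.8% over all genes: Il1b had 21 and 307 UMIs and a ratio of 37.6 (24.7 to 63.0), Il1rn, the antagonist of the interleukin-1 receptor, 3 and 145 UMIs, Il18bp, which binds interleukin-18, 2 and 63, and Il1a 18 and 30. Il1b and Il1rn stood at 151 and 71.5 CPM in the Casp8-mutant epithelium but at 1759 and 947 CPM in its granulocyte-like and 1067 and 345 CPM in its myeloid-like cells. Il18bp was at 31.1 CPM in the Casp8-mutant epithelium, 19.3 CPM in its granulocyte-like and 55.6 CPM in its myeloid-like cells. The granulocyte level is under the floor of 3 counts, 58.0 CPM there, and no intervals are given. These 3 levels are therefore not ordered. How much RNA of those cells enters these sums was not tested. Il18 and its binding protein thus had ratios of 0.663 and 66.8 (from 2 and 63 UMIs).

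**Figure D5:**
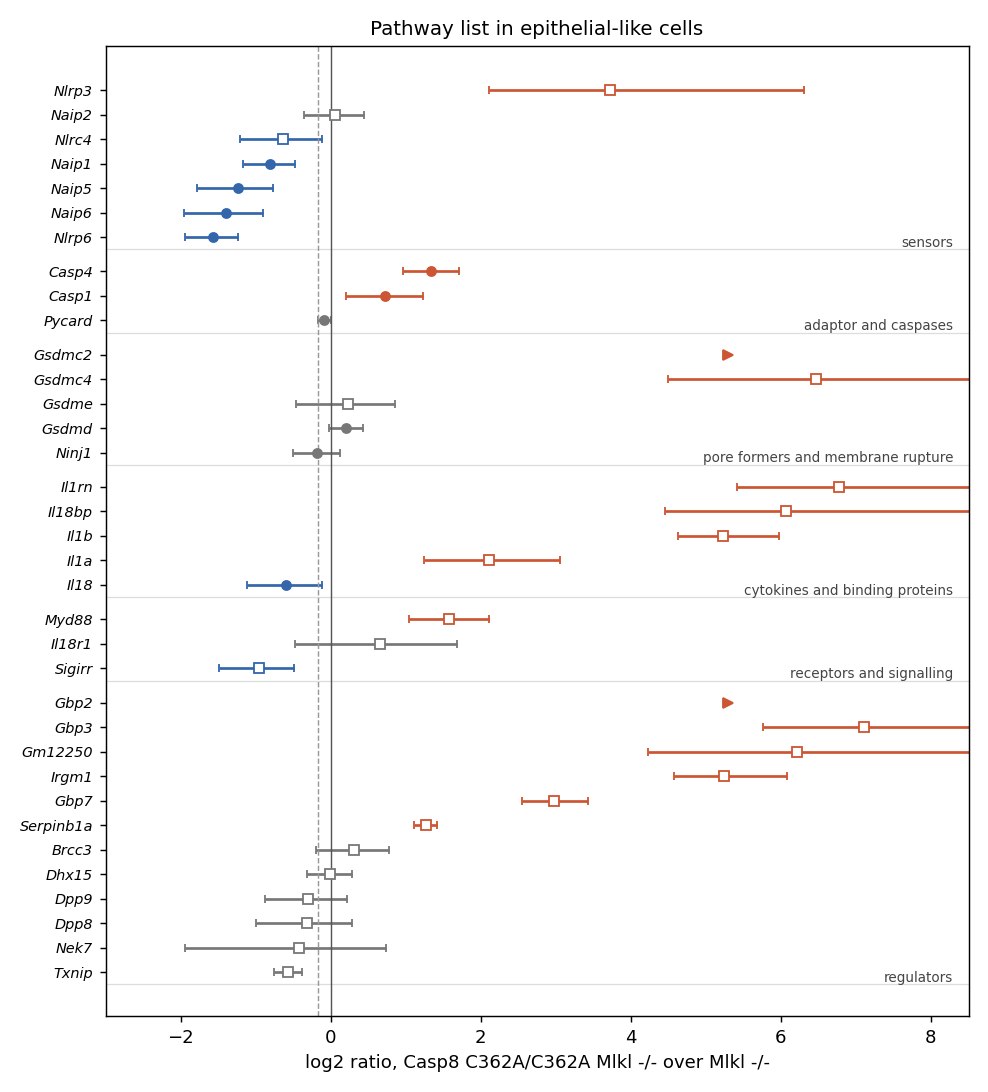
Log2 ratio (Casp8-mutant over Mlkl-null) of the 35 measured pathway genes in epithelial-like cells, grouped by role, with 95% counting intervals as bars. Circles are members, open squares other genes and triangles lower bounds, in red for higher, blue for lower and grey for neither, and the dashed line is the median of all genes. Sensors lie mostly below 0, and cytokines, guanylate-binding proteins and gasdermin C genes mostly above it.

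Among pore formers Gsdmc2 was counted 0 and 45 times, which is at least 39.4-fold higher when the Mlkl-null sum is set to 3 counts, and Gsdmc4 had 1 and 50 UMIs, while both were at 0 in granulocyte-like and myeloid-like cells of the Casp8-mutant library. Gsdme had a ratio of 1.17, so 2 of 5 were higher and 3, with Gsdmd and Ninj1, neither, beside 22.8% higher over all genes. Of the 12 measured regulators 6 were higher and none lower, beside 22.8% and 27.5% over all genes. The higher ones include the guanylate-binding proteins, which help expose bacterial lipopolysaccharide to caspase-11. Gbp2 had 0 and 45 UMIs (at least 39.4-fold higher, again with the Mlkl-null sum set to 3 counts), Gbp3 3 and 183, and Gbp7 58 and 174 with a ratio of 7.84. Irgm1, an interferon-inducible GTPase, had 17 and 251 UMIs and stood at 124 CPM in the Casp8-mutant epithelium. Its levels in granulocyte-like and myeloid-like cells were 58.0 and 55.6 CPM, without intervals. The granulocyte level is that of the floor of 3 counts, which does not place it below the epithelium. Serpinb1a, an inhibitor of inflammatory caspases, had 709 and 648 UMIs and a ratio of 2.40. Among receptor and signalling genes Sigirr, a negative regulator of interleukin-1 family receptors, was lower at 0.514 (0.357 to 0.711) and the adaptor Myd88 higher at 2.99.

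The genes with the most similar levels were looked up over the 13 class and library units with at least 20 cells, among 4840 genes, by Pearson correlation of log2(CPM + 10), as a description over units that share libraries and depth. Nlrp6 was nearest to Tkfc (0.963), Slc6a6 (0.954) and Dsp (0.932), and Naip6 to Tmc5 (0.974) and Sult1d1 (0.957). Casp4 was nearest to Gfer (0.916), Lgals9 (0.873) and Shisa5 (0.852), and Gsdmd to Tom1l2 (0.936). Ninj1 was nearest to the myeloid genes Lyz2 (0.932), Pla2g7 (0.918) and Bcl2a1d (0.897), as its class levels above show. Naip1 was nearest to Ggact (0.929), Naip5 to Irf3 (0.928), Il18 to Ftl1-ps1 (0.891) and Pycard to Med8 (0.869). Casp1 had under 200 UMIs in these units and is not given.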

How the data were processed

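Single cells from 1 Mlkl -/- and 1 Casp8 C362A/C362A Mlkl -/- intestine at embryonic day 18.5 were measured. The authors deposited whole-number UMI counts per gene and cell barcode, without cell annotation, and Cell Ranger 3.0.2, Seurat 3.0 and mm10 are named, per the submitters' processing notes. Barcodes with at least 500 genes and at most 20% mitochondrial UMIs were kept here, which left out 39 and 139 barcodes for too few genes. Scrublet doublets (0.278% and 0.229% of cells) were removed, a share too low to show that the caller worked in libraries of this size. Cells were scaled to 10000, and 2000 variable genes (members and pathway genes left out), 30 components, 15 neighbours and Leiden resolution 1 were used in scanpy 1.11.5 (Python 3.11.15). Clusters were named from marker lists. The scoring rule was revised after the clusters had been seen, because an earlier form named Casp8-mutant epithelial cells granulocyte-like from S100a8 and S100a9, and clusters are named X-like only from those markers.

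UMIs were summed per class and library and given as CPM of the class total. Levels have exact Poisson, ratios conditional exact and shares Clopper-Pearson intervals, at 95%. A gene was called at 1.5-fold with an interval leaving out 1 and at least 20 UMIs. A count of 0 was read against a floor of 3 counts. Cells are not replicates, so no test between the embryos was run. The scripts were tested on simulated data. The 10 genes were always named, and other pathway genes by a fixed size rule. The members and lists were chosen with earlier results of these data known. Promoters are from RefSeq (GRCm38.p6), gene positions from GENCODE M21 on GRCm38. Alternatives changed 1 choice at a time.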

Additional observations from a re-analysis of the deposited data

How the results depend on the processing

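Nlrp6, Naip5, Naip6 and Casp4 kept their calls, and Ninj1 stayed neither, under all 15 alternatives that gave a value, 4 of which were chosen after seeing the data. The calls of Pycard, Casp1, Gsdmd, Naip1 and Il18 changed under 1, 2, 2, 5 and 10 of them, that of Il18 also with the median of ratios and with 1 UMI added. At a clustering resolution of 0.5 (316 Casp8-mutant cells, none of E13 or E17) the ratios were 0.471 for Pycard, 2.94 for Casp1, 3.69 for Casp4, 1.42 for Gsdmd, 0.242 for Nlrp6, 0.983 for Naip1, 0.639 for Naip5, 0.538 for Naip6 and 1.01 for Il18, whose direction thus turned. With each library clustered alone (425 cells, 2 of the 155 of E13) they were 0.736 for Pycard, 2.54 for Casp1, 1.53 for Gsdmd, 0.886 for Naip1, 0.594 for Naip5 and 0.559 for Naip6, and 3 members were lower. Without Casp8-mutant cluster E13, added later, they were 0.734 for Pycard, 2.61 for Casp1, 1.52 for Gsdmd, 0.875 for Naip1 and 0.587 for Naip6, with 3 lower. Without Casp8-mutant cluster E20, added later, they were 1.05 for Pycard, 0.970 for Casp1 (turned), 0.376 for Naip1 and 0.458 for Il18, with 1 higher. As a mean over cells they were 0.828 for Pycard, 2.35 for Casp1, 3.73 for Casp4, 0.827 for Naip1 and 0.968 for Il18, with 3 lower. Thinned to 2000 UMIs, Casp1 was 0.826 (turned) and Gsdmd 0.961, with 1 member and 10 of 28 measured pathway genes higher (20.8% of all genes, against 16 of 35 and 22.8%). Pycard was 0.880 with doublets kept, a setting in which 1 of the 93 Casp8-mutant cells of E17 stayed in the class. It was 0.851 without the nuclear-RNA clusters E8 and E17. With at least 1000 genes per cell, 5 of 145 Casp8-mutant cells of E13 stayed in the class. A 2-fold rule left 3 pathway genes lower, and lowered the share of all genes from 27.5% to 17.7%. With clusters E1 and E7 as goblet cells, Pycard was 0.624 and Naip1 0.788. The median of ratios moved all epithelial ratios by 0.07 on the log2 scale. Apart from the settings that leave cells out by construction, the cause was not tested. A class from cells with no UMI of another class's markers held 53 and 0 cells, and cells without any immune marker UMI numbered 214 and 0, so neither alternative gave a value. Leaving S100a8 and S100a9 out of the markers left 225 and 19 cells. No paired analysis was possible because each genotype has 1 embryo. Of the 40 shares of cells, 31 moved between depths, 16 at full depth and 15 at 1000 UMIs. Depth limits the ratios, with 36 to 54 Casp8-mutant UMIs for Naip6, Naip5, Il18 and Casp1.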
